A study of Mus musculus with 8 samples.

Results

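Twist1, Twist2, Snai1, Snai2, Zeb1, Zeb2, Prrx1 and Prrx2, transcription factor genes of mesenchyme and of the epithelial-to-mesenchymal transition, were examined together with Pdgfra, which encodes a growth factor receptor of mesenchymal cells and is no transcription factor. The genes were chosen by symbol, and all 9 were found among the 23337 genes of the table. The RNA came from cells sorted as endothelial by flow cytometry, taken from entire mouse embryos at E15.5. Both groups carried the alleles written as Cdh5-CreERT2(PAC);Rosa26fsTRAP, a recombinase that tamoxifen activates, under control of endothelial Cdh5, and a reporter at Rosa26 that depends on it, although the genotype field reads wild type. The mothers of 1 group were given tamoxifen by gavage at E12.5, and those of the other group were not. Both groups carried the recombinase and no vehicle is named, so the drug, its gavage and the recombination it triggers cannot be told apart. Each group has 4 of the 8 labelled samples. Whether these are separate embryos or litters is not stated, so a p-value here reflects no more than how these samples vary, and that variation may be technical.

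The table has 8 library names for 9 columns of values. Columns 3 to 5, counting the gene name as column 1, carry a name without tamoxifen wherever the names are placed, and columns 7 to 9 a name with tamoxifen. These 6 libraries were compared. They are numbered from 1 to 3 within each group in the order of the table, as no_tamoxifen_1 and tamoxifen_1 and so on. Columns 6 and 10 are described apart. The 6 libraries held 8436939 to 13283464 reads in genes other than the ribosomal RNA precursor Rn45s. Endothelial transcripts were present, with the junction gene Cdh5 at 1978 to 5201 normalised reads, and so were transcripts of macrophages, with the receptor gene Csf1r at 7464 to 12229. No level given here can be assigned to endothelial cells alone, and in bulk samples fewer cells of a type and less RNA per cell cannot be told apart.

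In an epithelial-to-mesenchymal transition, cells give up their junctions and become motile, and endothelial cells can pass through a related change when the valves of the heart form. The SNAI and ZEB proteins are zinc finger repressors that bind E-boxes, DNA motifs with the letters CANNTG, and silence junction genes such as Cdh1. The TWIST proteins are basic helix-loop-helix factors that bind E-boxes as dimers with E-proteins, while the PRRX proteins are homeodomain factors of limb and craniofacial mesenchyme. Several of these genes are also active outside any transition: Twist1 and Prrx1 mark embryonic connective tissue, and Zeb2 is expressed by macrophages.

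Twist1, Twist2, Prrx1 and Pdgfra were high in tamoxifen_1 and tamoxifen_2 and near the level without tamoxifen in tamoxifen_3. Zeb1 varied less between libraries, Zeb2 was abundant and nearly level, and Snai1 and Snai2 were low throughout. In limma, fitted to all tested genes, none of the 8 genes that could be tested passed an adjusted p of 0.05. The values are the authors' normalised read counts, and adjusted p-values are by Benjamini-Hochberg.

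Twist1, which encodes a helix-loop-helix regulator of head and limb mesenchyme, was at 10.4, 5.40 and 5.33 normalised reads in the 3 libraries without tamoxifen. It was at 72.7, 100.7 and 10.5 in those with tamoxifen. The groups did not overlap, but tamoxifen_3 and no_tamoxifen_1 were nearly equal, and the values rest on 12, 5 and 7 reads without tamoxifen against 71, 106 and 15 with it. The group means were 7.05 ± 2.91 and 61.3 ± 46.2 (SD, n = 3 each). The log2 fold change, on log2(value + 1), was 2.52 ± 0.79 (SE, limma adjusted p = 0.462 over all tested genes), a 5.72-fold difference with a 95% interval of 1.65 to 19.9. Twist1 was the 1 member whose groups did not overlap in this direction, as was so for 6.24% of the 13480 genes tested. Leaving out tamoxifen_3 changed the call, and that setting is given for all members together further on.

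Twist2, its close relative in dermal mesenchyme, followed the same libraries. It was at 10.4, 4.32 and 3.04 normalised reads without tamoxifen and at 54.3, 91.2 and 7.01 with it. Here the groups overlapped, since tamoxifen_3 lay below no_tamoxifen_1. Its log2 fold change was 2.46 ± 0.89 (SE, limma adjusted p = 0.494). Per kilobase of exon, Twist1 exceeded Twist2 in each of the 6 libraries, by 1.95-fold to 3.41-fold, but the ratio was 0.909 in column 6 and 0.812 in column 10. Without tamoxifen this ratio rests on 12, 5 and 7 reads of Twist1 and 12, 4 and 4 of Twist2, over exon lengths of 1628 and 3174 bases. Both genes averaged under 10 normalised reads without tamoxifen and so reached the minimum mean of 10 for testing only through the tamoxifen group. Twist2 shares 1477 exonic bases with the antisense gene Gm29100, and without strand, reads of the 2 cannot be told apart.

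Prrx1, a homeobox gene of limb bud and skeletal mesenchyme, was at 25.2, 9.72 and 10.7 normalised reads without tamoxifen. With tamoxifen it was at 187, 253 and 14.7. The first pair of tamoxifen libraries lay 7.45-fold and 10.04-fold above the highest library without the drug, while tamoxifen_3 lay inside their range. Its log2 fold change was 2.62 ± 0.96 (SE, limma adjusted p = 0.496). Prrx2, the related homeobox gene, was barely detected, with 1, 4 and 1 reads without tamoxifen and 17, 7 and 6 with it. At a mean of 5.70 normalised reads it was under the minimum for testing. Without that minimum its log2 fold change was 1.80 ± 0.66 (SE, limma adjusted p = 0.505).

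Pdgfra, the receptor for PDGF-A and a surface marker of fibroblast progenitors, had the widest range, 72.4-fold between the highest and the lowest of the 6 libraries. It was at 29.5, 46.5 and 6.09 normalised reads without tamoxifen and at 327, 441 and 41.4 with it. As with Twist2 and Prrx1, tamoxifen_1 and tamoxifen_2 stood above the libraries without the drug and tamoxifen_3 among them. The group means were 27.3 ± 20.3 and 269.7 ± 205.8 (SD, n = 3 each). The log2 fold change was 3.08 ± 0.95 (SE, limma adjusted p = 0.462), with a 95% interval of 0.90 to 5.25. Pdgfra shares 456 exonic bases with the antisense gene Gm42802.

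Snai1 encodes a repressor that is needed for gastrulation. It was at 25.2, 17.3 and 5.33 normalised reads without tamoxifen and at 47.1, 53.2 and 12.6 with it. The groups overlapped through tamoxifen_3, which lay between no_tamoxifen_2 and no_tamoxifen_3. The log2 fold change was 1.18 ± 0.69 (SE, limma adjusted p = 0.624).

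Snai2, which encodes the repressor also called Slug, went a different way in tamoxifen_3. It was at 15.6, 17.3 and 10.7 normalised reads without tamoxifen and at 21.5, 20.9 and 2.10 with it, the last from 3 reads. So the highest and the lowest of the 6 values were both in the tamoxifen group. The log2 fold change was -0.40 ± 0.78 (SE, limma adjusted p = 0.901), and its 95% interval, -2.20 to 1.39, spans changes in either direction. Per kilobase of exon, Snai1 stood to Snai2 as 2.01, 1.25 and 0.623 to 1 without tamoxifen and as 2.73, 3.17 and 7.48 to 1 with it. That ratio did not overlap between the groups, the only one of the 4 family ratios to do so. An exact permutation test of 3 against 3 libraries cannot give a two-sided p below 0.1, and the ratio in tamoxifen_3 rests on 18 and 3 reads.

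Zeb1, a repressor with zinc finger clusters at both ends, was at 403, 431 and 286 normalised reads without tamoxifen. With tamoxifen it was at 574, 592 and 266. As with the mesenchymal genes, tamoxifen_1 and tamoxifen_2 were highest, but tamoxifen_3 was the lowest of the 6 and the range was 2.23-fold. The log2 fold change was 0.29 ± 0.31 (SE, limma adjusted p = 0.798), with a 95% interval of -0.42 to 0.99.

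Zeb2, the second ZEB gene and a regulator of macrophage identity, was at 3490, 3572 and 3490 normalised reads without tamoxifen and at 3231, 2962 and 3525 with it. It was the only member with its lowest values in tamoxifen_1 and tamoxifen_2, though the range over the 6 libraries was 1.21-fold. The group means were 3517 ± 47.8 and 3240 ± 281 (SD, n = 3 each), and the log2 fold change was -0.12 ± 0.10 (SE, limma adjusted p = 0.726). The 95% interval of the fold ran from 0.783 to 1.08. These values rest on 3118 to 5026 reads per library.

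**Figure D1:**
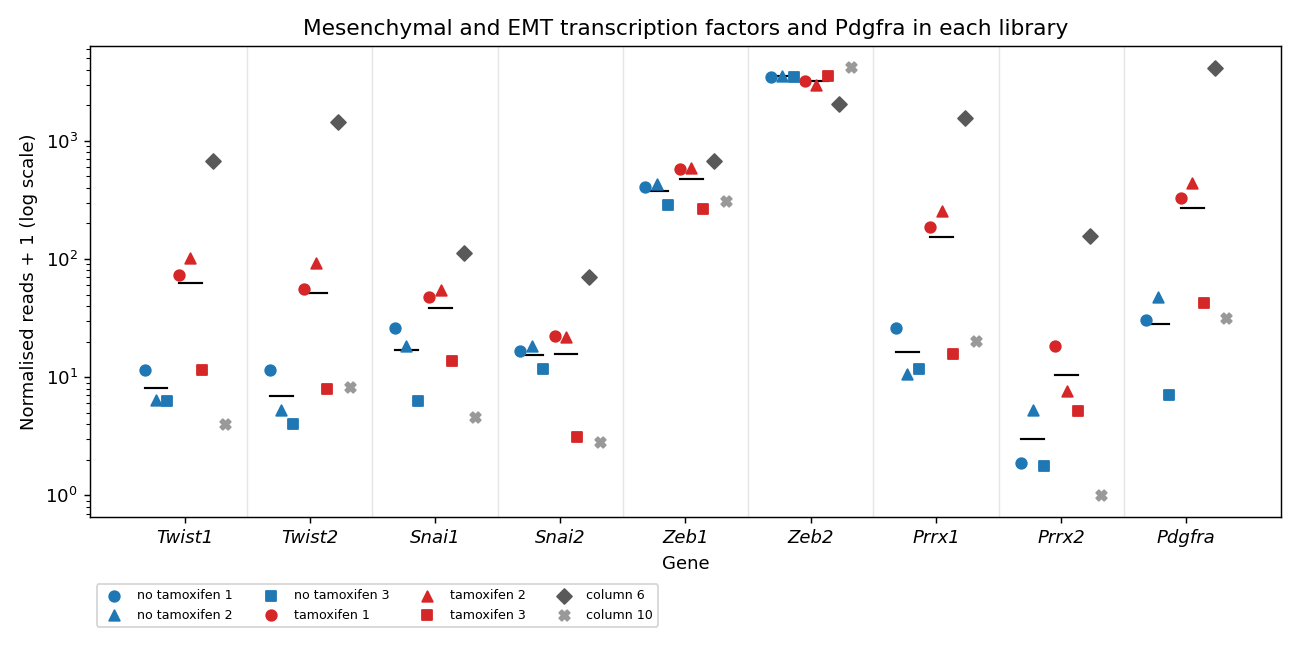
Normalised reads plus 1 (log axis) of the 9 genes in each library, with blue for no tamoxifen, red for tamoxifen, grey for columns 6 and 10, a marker shape for each library and bars at the group means of 3 libraries. Twist1, Twist2, Prrx1 and Pdgfra are high in tamoxifen_1 and tamoxifen_2 but not in tamoxifen_3, Zeb2 stays between 2962 and 3572 in the 6 libraries, and column 6 is above all 6 for every gene but Zeb2.

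Of the 8 members tested, 0 passed an adjusted p of 0.05 in limma, where 0.0445% of all tested genes did, 6 of 13480. At an unadjusted p under 0.05 there were 4 members, Twist1, Twist2, Prrx1 and Pdgfra, and 1215 of all tested genes. edgeR on recovered reads called 0 members, with adjusted p values of 0.296 to 0.987. DESeq2 on the same reads called 2 members higher, Twist1 (adjusted p = 0.00514) and Twist2 (adjusted p = 0.0187), and called 1.83% of all tested genes higher. Twist1 and Twist2 averaged under 10 normalised reads without tamoxifen and reached testing only through the tamoxifen group, which bears on their calls. With tamoxifen_3 left out, limma called 6 members higher, while 7.32% of all tested genes were called higher in that setting. The 6 were Prrx1 at a log2 fold change of 3.88 ± 0.39 (SE, limma adjusted p = 4.72e-06), Twist1 at 3.49 ± 0.45 (limma adjusted p = 7.11e-05), Pdgfra at 4.13 ± 0.54 (limma adjusted p = 7.76e-05), Twist2 at 3.51 ± 0.53 (limma adjusted p = 0.000313), Zeb1 at 0.66 ± 0.17 (limma adjusted p = 0.0194) and Snai1 at 1.82 ± 0.52 (limma adjusted p = 0.0332). Snai2, at 0.54 ± 0.45, and Zeb2, at -0.18 ± 0.11, did not pass. Without that library 7 members lay above and Zeb2 lay below with no overlap, as 18.8% and 22.6% of all tested genes did in that setting. With any of the other 5 libraries left out, 0 members passed, though some folds moved by over 1.5 times. Without tamoxifen_2 the fold was 3.77 for Twist1, 3.36 for Twist2, 3.67 for Prrx1 and 5.42 for Pdgfra. Without no_tamoxifen_3 it was 4.81 for Pdgfra, and 1.503 for Snai1 where 2.27 was found with all 6 libraries. The placement of the header names moved the values further. With the names over the last 8 columns, which puts column 6 among the libraries without tamoxifen and column 10 among those with it, the log2 fold change was 0.035 for Twist1, -0.023 for Twist2, 0.39 for Prrx1 and 0.55 for Pdgfra. With the names over the first 8, which puts column 6 among those with tamoxifen, it was 3.50, 3.81, 3.64 and 4.196 in the same order, and 0 members passed in either placement.

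**Figure D2:**
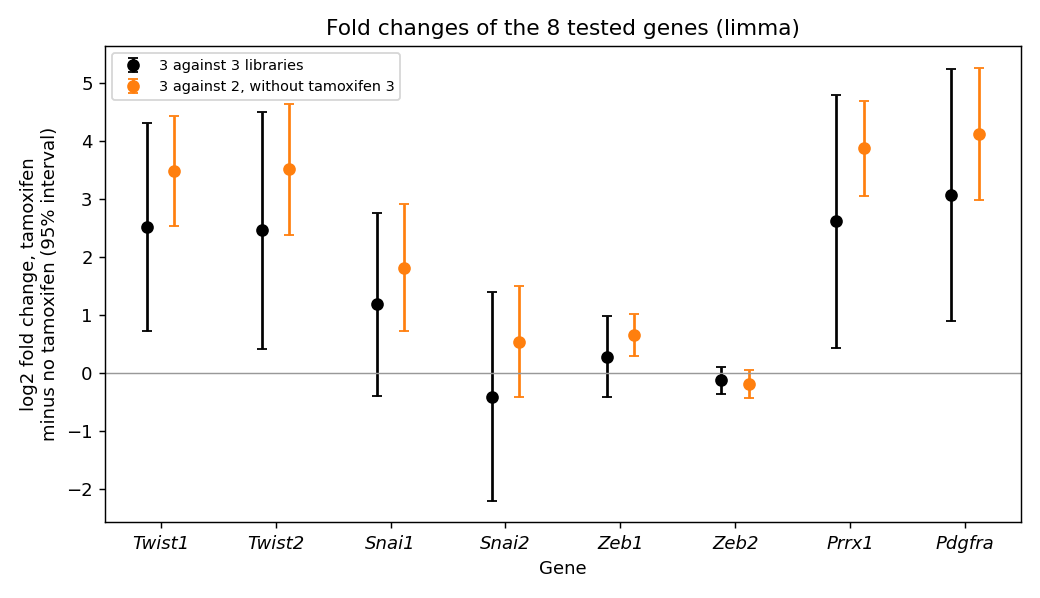
log2 fold changes (tamoxifen minus no tamoxifen) of the 8 tested genes with 95% intervals from limma, in black for 3 against 3 libraries and in orange without tamoxifen_3. The black intervals of Twist1, Twist2, Prrx1 and Pdgfra lie above 0 before adjustment, and the orange intervals of 6 genes are narrower and lie above 0, while Zeb2 stays near 0 in both.

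Levels of different genes were compared per kilobase of annotated exon. Zeb2 was the highest of the 9 genes in each of the 6 libraries, at 148 to 179 normalised reads per kilobase. Zeb1 came next in 5 of the 6, at 25.9 to 57.7, and ranked 3 in tamoxifen_2, behind Twist1 at 61.9. Without tamoxifen the means of Zeb2 (176 ± 2.40, SD, n = 3) and Zeb1 (36.4 ± 7.50) stood clear of each other and of the rest. Then came Snai1 (9.82 ± 6.16), Snai2 (7.18 ± 1.71), Twist1 (4.33 ± 1.79), Pdgfra (2.73 ± 2.02), Twist2 (1.87 ± 1.24), Prrx1 (1.37 ± 0.78) and Prrx2 (1.01 ± 1.03), and the libraries of each neighbouring pair in that order overlapped. With tamoxifen only Zeb2 (162 ± 14.1) stood clear, and Zeb1 (46.5 ± 17.8), Twist1 (37.7 ± 28.4), Pdgfra (26.9 ± 20.5), Snai1 (23.2 ± 13.5), Twist2 (16.0 ± 13.3), Prrx1 (13.7 ± 11.1), Snai2 (7.34 ± 5.46) and Prrx2 (4.81 ± 3.58) each overlapped their neighbours. That overlap is across libraries. Within every tamoxifen library Twist1 was above Pdgfra, Snai1 above Twist2, Twist2 above Prrx1 and Prrx1 above Snai2. The order of Zeb1 and Twist1, of Pdgfra and Snai1 and of Snai2 and Prrx2 differed between these libraries. Within every library without tamoxifen, Snai2 was above Twist1. In tamoxifen_1 and tamoxifen_2 Twist1 stood at 44.7 and 61.9 per kilobase and Pdgfra at 32.6 and 44.0, while Snai2 ranked 8 at 10.6 and 10.3. In tamoxifen_3 Snai2 ranked 9, at 1.04. Exon lengths were unions over all annotated isoforms, from 1621 bases for Snai1 to 19942 for Zeb2, so a gene whose long isoforms are not used here is understated.

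**Figure D3:**
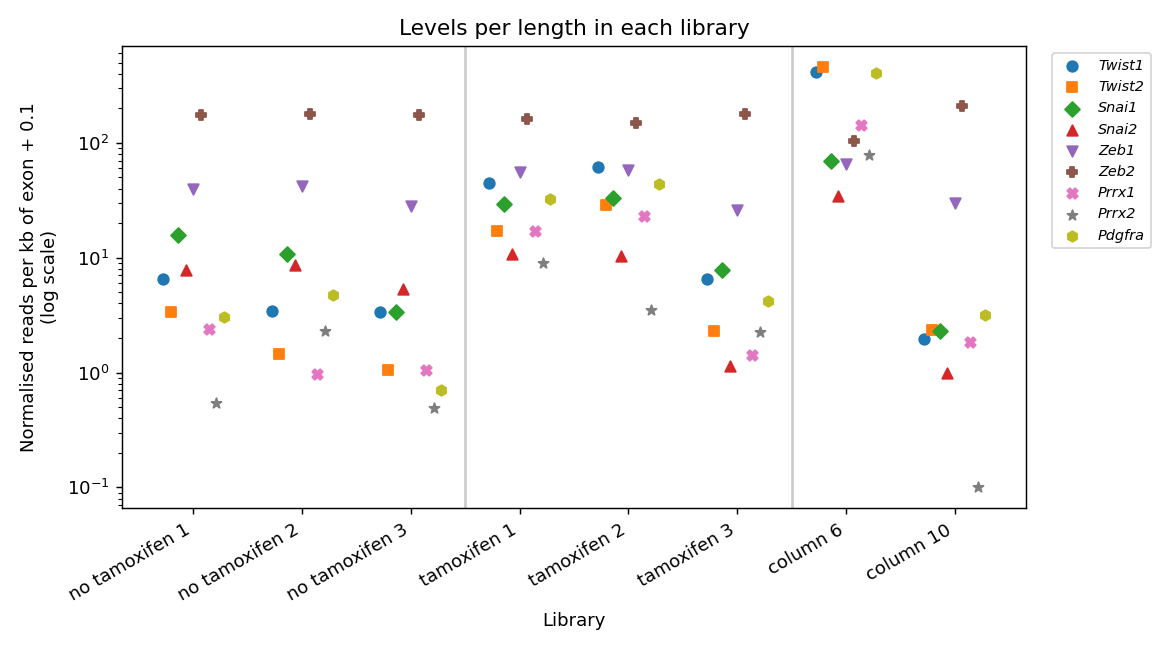
Normalised reads per kilobase of exon plus 0.1 (log axis) for the 9 genes, with the libraries on the horizontal axis and a colour and marker for each gene. Zeb2 is at the top of the 6 compared libraries at 148 to 179, and Twist1 and Pdgfra come close to Zeb1 in tamoxifen_1 and tamoxifen_2.

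Promoters of 7 of the 9 genes were matched by symbol in a RefSeq table on GRCm38.p6. Those of Snai1, Pdgfra and Twist1 are shown because these genes had their highest values in tamoxifen_1 and tamoxifen_2 yet differ in their E-box letters. Each line holds the 250 bases before the RefSeq start site, 5′ to 3′ on the gene's strand, with every CANNTG in capitals, a motif that has the same form on both strands. The regions are chr2:167537945-167538194 for Snai1, chr5:75152001-75152250 for Pdgfra and chr12:33957421-33957670 for Twist1, all on the plus strand. The RefSeq start of Pdgfra lies 41 bases from that of GENCODE.
Snai1: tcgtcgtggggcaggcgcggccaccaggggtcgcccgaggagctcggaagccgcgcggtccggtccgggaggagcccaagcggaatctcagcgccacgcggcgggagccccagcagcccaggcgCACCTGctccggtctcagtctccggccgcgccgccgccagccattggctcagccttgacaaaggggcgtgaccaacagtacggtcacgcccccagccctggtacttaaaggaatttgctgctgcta
Pdgfra: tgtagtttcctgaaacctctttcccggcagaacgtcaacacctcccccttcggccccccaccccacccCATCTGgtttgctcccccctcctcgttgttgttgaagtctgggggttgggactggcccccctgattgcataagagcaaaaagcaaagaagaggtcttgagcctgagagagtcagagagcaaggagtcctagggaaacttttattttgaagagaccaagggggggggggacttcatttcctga
Twist1: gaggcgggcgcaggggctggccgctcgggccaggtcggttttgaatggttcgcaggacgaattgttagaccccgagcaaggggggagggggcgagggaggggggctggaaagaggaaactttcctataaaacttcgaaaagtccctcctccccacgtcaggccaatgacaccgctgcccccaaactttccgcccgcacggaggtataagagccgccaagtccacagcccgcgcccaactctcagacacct

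Snai1 held 1 E-box, CACCTG, starting 126 bases before the start site. This form, the one that SNAI and ZEB proteins prefer, occurs as CACCTG or CAGGTG in 17.3% of 32536 promoter windows of that length. Pdgfra held CATCTG, 182 bases before its start site. Twist1 held no CANNTG in this window, nor did any window listed for Twist2, Prrx1, Prrx2 and Zeb2, while 66.2% of all windows held at least 1. A match is a string of letters and was not tested for binding.

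In the GENCODE M21 annotation of GRCm38, Twist1 lies on chromosome 12 at 33957671 to 33959829 on the plus strand, Twist2 on chromosome 1 at 91801461 to 91848028 on the plus strand and Prrx1 on chromosome 1 at 163245119 to 163313710 on the minus strand. Prrx2 lies on chromosome 2 at 30834972 to 30881251, Snai1 on chromosome 2 at 167538195 to 167542814, Snai2 on chromosome 16 at 14705852 to 14709385 and Pdgfra on chromosome 5 at 75152292 to 75198215, all on the plus strand. Zeb1 lies on chromosome 18 at 5591860 to 5775467 on the plus strand and Zeb2 on chromosome 2 at 44983632 to 45117395 on the minus strand. Zeb1 shares 198 exonic bases with Gm10125, which has a row of its own at 21.0 to 41.8 normalised reads in the 6 libraries, and Zeb2 shares 653 with its antisense gene Zeb2os.

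Markers of other cells varied over the same libraries. The summed level of 10 fibroblast and mesenchyme markers, all of them detected, was 2016 to 4288 normalised reads without tamoxifen and 55897, 86544 and 4440 in tamoxifen_1, tamoxifen_2 and tamoxifen_3. Col1a1 and Col1a2 were the most abundant of these. That of 9 cartilage markers, led by Col2a1 and Col11a2, was 907 to 1189 without tamoxifen and 19429, 16721 and 1154 with it. The 9 mural cell markers, led by Pdgfrb and Notch3, summed to 629 to 1028 without the drug and to 2195, 2375 and 745 with it. Endothelial markers, 10 in all and led by Cdh5 and Kdr, summed to 11564 to 19283 without tamoxifen and to 18624, 19164 and 7639 with it, and 9 macrophage markers, led by Mrc1 and Csf1r, to 39440 to 47919 and to 31796, 30636 and 48756. The same pair of libraries was thus high in connective tissue markers and in Twist1, Twist2, Prrx1 and Pdgfra, and low in macrophage markers and Zeb2. The part of these cells in the members' levels was not tested. Neural crest and Schwann markers, 7 in all with 2 tested, summed to 47.9 to 58.3 without tamoxifen and to 174, 223 and 45.6 with it. That rise was carried by Ngfr, at 114 and 145 in tamoxifen_1 and tamoxifen_2. Erbb3 was at 36.9 and 36.1 there, against 21.7 to 40.0 without tamoxifen. The 8 skeletal muscle markers summed to 144 to 151 and to 222, 168 and 89.1, with Myf5 at 0 in all 6. Only 1 of them, Ttn, could be tested. It made up most of the sum, at 141, 144 and 135 without tamoxifen and 203, 126 and 82.1 with it.

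Each member but Prrx2 was also set against a marker in the same library. Per 1000 normalised reads of Col1a1, the main fibroblast collagen gene, Prrx1 was at 13.5, 8.25 and 11.9 without tamoxifen and at 7.15, 5.91 and 7.41 with it, so that it lay lower in every tamoxifen library. Twist1 was at 5.58, 4.58 and 5.95 per 1000 Col1a1 without tamoxifen and at 2.77, 2.36 and 5.29 with it. Its ratio varied 2.52-fold over the 6 libraries, where its level varied 18.9-fold. The ratio to Col1a1 varied 2.69-fold for Twist2, 5.80-fold for Pdgfra and 11.8-fold for Snai1, and for each of these genes the groups overlapped. Snai2 was at 8.37, 14.7 and 11.9 per 1000 Col1a1 without tamoxifen and at 0.821, 0.489 and 1.06 with it, a range of 29.99-fold.

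Per 1000 of the endothelial gene Cdh5, Snai2 was at 3.11, 4.04 and 3.61 without tamoxifen and at 4.14 and 4.37 in tamoxifen_1 and tamoxifen_2, but at 1.06 in tamoxifen_3. Zeb1 per 1000 Cdh5 was at 80.4, 100.7 and 97.1 without tamoxifen and at 110, 124 and 134 with it. That range over the 6 libraries, 1.67-fold, was narrower than the 2.23-fold of its level, and the groups did not overlap. This ratio was at 902 in column 6 and at 280 in column 10. Zeb1 per 1000 Col1a1 lay lower in every tamoxifen library, at 21.9, 13.8 and 134 against 216, 366 and 319 without tamoxifen. Snai1 per 1000 Cdh5 lay higher in every tamoxifen library, at 9.06, 11.1 and 6.38 against 5.01, 4.04 and 1.81. Zeb2 per 1000 Csf1r was at 311, 372 and 296 without tamoxifen and at 398, 397 and 288 with it, a 1.38-fold range that was wider than that of its level. Of 11 such ratios, all chosen after the values were seen, 5 did not overlap between the groups, and none can pass an exact permutation test at 3 against 3.

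**Figure D4:**
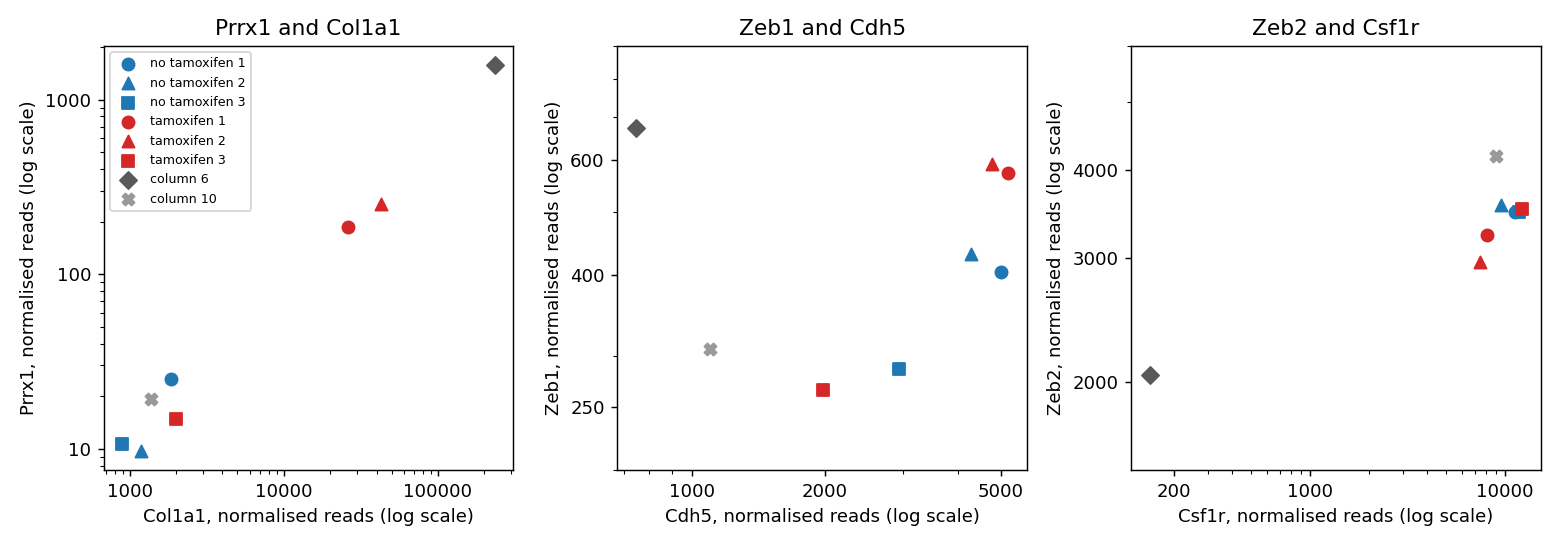
Normalised reads (both axes log scale) of Prrx1 against Col1a1, Zeb1 against Cdh5 and Zeb2 against Csf1r, 1 point per library, blue without tamoxifen, red with it and grey for columns 6 and 10. Prrx1 and Col1a1 are high together in tamoxifen_1, tamoxifen_2 and column 6, while column 6 holds 673 reads of Zeb1 with 747 of Cdh5 and 2051 of Zeb2 with 151 of Csf1r.

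Other genes of the programme were read from 7 lists, in which 0 genes passed in limma and 0 in edgeR, while 22 had an unadjusted limma p under 0.05 and 14 were called higher by DESeq2. Of all 13480 tested genes, 1215 had such a p and 1.83% were called higher by DESeq2. Without tamoxifen_3, to be set beside each count below, 7.32% of all tested genes were called higher and 3.48% lower. Of 36 further mesenchymal transcription factor genes 19 could be tested, and 15 of these had a log2 fold change above 0, against 6264 of all 13480 tested genes. Their median was 0.79, where that of all tested genes was -0.02, and 11 were called higher without tamoxifen_3. Ebf2, a factor of adipose and bone progenitors, was at 6.94, 1.08 and 0.761 normalised reads without tamoxifen and 61.5, 127 and 10.5 with it (3.88 ± 0.96, SE, limma adjusted p = 0.430). Bnc2, a zinc finger gene of connective tissue, was at 4.34, 3.24 and 5.33 against 57.4, 54.2 and 7.01 (2.50 ± 0.79, limma adjusted p = 0.463). Both had groups that did not overlap, as 6.24% of all tested genes did in that direction. Both averaged under 10 without tamoxifen and so reached testing only through the tamoxifen group, as did 6 of the 19 in all, which bears on the list's count and median. The somite factor Tcf15 (-0.67 ± 0.41) and the forkhead gene Foxf2 (-0.56 ± 0.67) had the lowest p among those below 0.

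Of 24 mesenchymal effector genes, which encode matrix and adhesion proteins of the transition, all were tested, with 21 above 0, a median log2 fold change of 1.18 and 19 called higher without tamoxifen_3. Postn, a matrix gene, followed the mesenchymal pattern, at 92.0, 90.7 and 51.0 against 1575, 1798 and 148. Cdh2, the N-cadherin gene that replaces E-cadherin in the transition, had a log2 fold change of -0.44 ± 0.71 and stood at 21.0 in tamoxifen_3 against 59.4 to 138 without tamoxifen. The integrin gene Itga5 was at -0.04 ± 0.12.

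Of 20 epithelial genes that the repressors are known to silence, 11 could be tested, with 4 above 0, 7 below 0 and a median log2 fold change of -0.25. Without tamoxifen_3, 1 was called higher and 1 lower, where 3.48% of all tested genes were called lower. Cdh1, the E-cadherin gene, was at 98.0, 125 and 129 normalised reads without tamoxifen and at 162, 109 and 142 with it (0.22 ± 0.21, SE, limma adjusted p = 0.773). The adhesion gene Epcam was at 1.10 ± 0.77, the keratin gene Krt8 at -1.70 ± 0.88 and the desmosome gene Dsp at -0.67 ± 0.37.

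Of the E-protein and ID genes, which encode dimer partners of TWIST proteins and their inhibitors, 6 of 7 were tested, with 4 above 0 and a median of 0.06. Tcf3, which encodes a dimer partner of TWIST proteins, was at 0.20 ± 0.12, and the inhibitor genes Id3, Id1 and Id2 were at 0.27 ± 0.15, -0.11 ± 0.19 and -0.01 ± 0.14. All 14 corepressor and chromatin genes were tested, with 7 above 0 and 7 below, and their median was -0.0033. In neither list was a gene called without tamoxifen_3. They included Mta1 (0.14 ± 0.11), Smarca4 (0.11 ± 0.09), Hdac2 (-0.21 ± 0.14) and Suz12 (-0.15 ± 0.11).

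Of 13 TGF-beta genes, which hold the main inducers of the transition, 8 were above 0, with a median of 0.05, and 4 were called higher and 1 lower without tamoxifen_3. The ligand gene Tgfb3 was at 46.0, 35.6 and 45.7 normalised reads without tamoxifen and at 134, 177 and 42.1 with it, and the coreceptor gene Tgfbr3 at 324, 261 and 225 against 578, 713 and 239. Both were high in the libraries in which Twist1 was high. Smad2, which encodes a signal transducer, lay lower in every tamoxifen library, as 7.62% of all tested genes did, at -0.27 ± 0.11 (limma adjusted p = 0.523), and the SMAD corepressor gene Skil was at -0.41 ± 0.16.

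All 6 genes of PDGF ligands and of PDGFRB were tested, with 5 above 0, a median of 0.21 and 1 called higher without tamoxifen_3. Pdgfrb, the receptor gene of pericytes, was at 449, 319 and 368 normalised reads without tamoxifen and at 542, 589 and 495 with it, without overlap (0.53 ± 0.15, SE, limma adjusted p = 0.462). Unlike Pdgfra it was above the libraries without the drug in tamoxifen_3 too. Pdgfa, the ligand gene of PDGFRA, was at 31.2, 16.2 and 25.9 against 33.8, 34.2 and 36.5 (0.54 ± 0.34). Pdgfd was at -0.08 ± 0.62.

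The genes most like each member were sought by Pearson's r of log2(value + 1) over the 6 libraries. The search covered 10336 or 10337 genes with a mean of at least 50, with predicted genes of Gm or Rik names left out. These r values are a description, since the libraries fall apart into tamoxifen_1 and tamoxifen_2 and the rest, and share depth and cell makeup. Twist1 was most like the collagen genes Col6a3 (r = 0.999) and Col5a1 (r = 0.998) and the cross-linking enzyme gene Loxl1 (r = 0.998), and Twist2 was most like Gabbr1, Col6a1 and Cacna1g (r = 0.997 each). Prrx1 was most like the matrix genes Matn2 and Dcn and the neurotrophin receptor gene Ngfr (r = 0.998 each). For Pdgfra they were Socs5 (r = 0.992), Gata3 (r = 0.988) and Ccdc80 (r = 0.985). Snai1 was most like Sh3rf1, Ppm1k (r = 0.990 each) and Adamts1 (r = 0.989), and Snai2 was most like Mdfi (r = 0.989), Zfp326 and the endothelial gene Fgd5 (r = 0.988 each). Zeb1 was most like Kank1 and Il6st (r = 0.997 each), and Zeb2 was most like Rpe (r = 0.996), Casp4 (r = 0.995) and Polr2c (r = 0.994). Prrx2, with 1 to 17 reads a library, was most like Fam174b (r = 0.972), Hspd1 (r = 0.971) and Zbtb11 (r = 0.969).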

How the data were processed

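RNA sequencing libraries of ribosomal-RNA-depleted RNA were deposited as 1 table of normalised read counts per gene symbol, a signal unit. How the authors scaled them is read here from the deposited values alone, as 1 divisor per library. Tools named in the submitters' processing notes are DESeq2, STAR and HTSeq 0.11.2, and mm10 and hg38 are the builds named, with no roles. Strandedness was not given in those notes or the labels. Whole reads were recovered, since in all 8 columns used 100% of values lay within 0.001 reads of a multiple of the library's smallest step. The header is 1 field short (9 against 10), and 1 column of values was not used.

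The 6 libraries with a settled group were fitted on log2(value + 1) in R 4.3.3 by limma 3.58.1 with a mean-variance trend, for 13480 genes with a mean of at least 10, with Benjamini-Hochberg adjustment at 0.05 over all of them. Fold changes on that scale understate the change of low genes. Alternatives were edgeR 4.0.16 and DESeq2 1.42.0 on recovered reads, other pseudocounts and filters, no trend, a replicate block, both header placements and leaving out each library. The tests were checked on simulated counts whose spread between libraries was capped, at a dispersion of 0.05. That check does not bear on genes that vary more between libraries. Members, lists and alternatives were chosen with earlier results of these data known. Named genes are the members, in each pathway list the 2 tested genes with the smallest p above and below 0, the 2 most abundant of a marker list, 4 check genes and, for likeness, the 3 genes of highest r. Of these, 2 are not reported here. The fourth check gene, Hspa1b, was at 5.32 ± 0.23 (SE, limma adjusted p = 8.83e-05). Of 205 listed symbols 198 were in the table. Further marker lists, of epithelial, erythroid, lymphoid and heat shock and immediate early genes, are in the closing section.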

Additional observations from a re-analysis of the deposited data

Results flagged for a closer look

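The library of column 6, which is named without tamoxifen when the names cover the last 8 columns and with tamoxifen when they cover the first 8, held 8 of the 9 genes above the highest of the 3 libraries without tamoxifen. Twist1 was at 677 normalised reads there against a highest value of 10.4, Twist2 at 1452 against 10.4, Prrx1 at 1572 against 25.2, Prrx2 at 155 against 4.32 and Pdgfra at 4101 against 46.5. Snai1 was at 112 against 25.2, Snai2 at 69.2 against 17.3 and Zeb1 at 673 against 431. Per kilobase of exon Twist2 (458), Twist1 (416) and Pdgfra (409) led in that library and Zeb2 (103) ranked 5. Its 4722781 reads outside Rn45s were the fewest, its fibroblast and mesenchyme markers summed to 444098 normalised reads, its erythroid markers to 88843, its macrophage markers to 557 and its endothelial markers to 3336.

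The library of column 10, named with tamoxifen when the names cover the last 8 columns and otherwise unnamed, held Zeb2 at 4193 normalised reads against at most 3572 without tamoxifen. Its other values lay at 2.998 for Twist1, 7.19 for Twist2, 3.60 for Snai1, 1.80 for Snai2, 307 for Zeb1, 19.2 for Prrx1 and 30.6 for Pdgfra. Prrx2 had 0 reads there, which allows up to 1.80 normalised reads at 3 reads. The difference of these 2 libraries from the others was not tested.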

How the results depend on the processing

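Of 124 recomputed fold changes of the 8 tested members, 8 changed sign, 9 passed the threshold where the reported value did not, and 107 kept their sign and stayed on the same side. Keeping the sign did not mean keeping the size: with the header names over the last 8 columns the log2 fold change was 0.035 for Twist1, 0.39 for Prrx1 and 0.55 for Pdgfra, against 2.52, 2.62 and 3.08 reported. In that setting it was -0.023 for Twist2, -0.27 for Snai1, -0.068 for Zeb1 and 0.17 for Zeb2. Snai2 was at 0.054 in edgeR, at 0.050 in DESeq2, at 0.25 with the names over the first 8 and at -0.89 to 0.54 with 1 library left out, above 0 only without tamoxifen_3. The count of all genes past the threshold, 6, was 3 without the trend, 275 in DESeq2, 0 in limma with the names over the first 8, and 2 to 1459 with 1 library left out. The count of members past it, 0, was 2 in DESeq2 and 0 to 6 with 1 library left out. The count of members whose groups did not overlap, 1, was 0 with a minimum mean of 50, where Twist1 is not tested, 0 with the names over the last 8 and 1 to 8 with 1 library left out. The count of pathway list genes past the threshold, 0, was 14 in DESeq2 and 0 to 38 with 1 library left out. The cause was not tested.

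The replicate numbers were not taken to pair the libraries, since same-numbered libraries deviated together with r = 0.20, 0.04 and 0.34 and not every library correlated best with its own number. With a replicate block 21 genes passed, among them 1 member, Pdgfra (limma adjusted p = 0.00387), and 1 pathway list gene. Counts of 1 to 17 reads limit what Prrx2 can show.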

Other observations

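Markers of cells not described above were read in the same libraries. The 8 epithelial markers, led by Cdh1 and Grhl2, summed to 231 to 374 normalised reads without tamoxifen and to 278 to 312 with it. The 6 lymphoid markers found summed to 2537 to 3149 and to 2731 to 3659, a sum carried by the pan-leukocyte gene Ptprc. Of these 6, 5 had a log2 fold change above 0, with a median of 1.54, 0 passed in limma, 4 had an unadjusted p under 0.05, 0 were called by edgeR and 2 by DESeq2, and 5 were called higher without tamoxifen_3. Of all 13480 tested genes, 1215 had such a p and 1.83% were called higher by DESeq2. Without tamoxifen_3, 7.32% of all tested genes were called higher. The recombinase gene Rag1 of developing lymphocytes was at 92.8, 150 and 136 normalised reads without tamoxifen and at 1011, 607 and 122 with it. Among the 6 libraries it was thus high where Twist1 was high. In column 6, where Twist1 was at 677, Rag1 was at 2.03, the value of 1 read, and the lymphoid markers summed to 54.9. The part of lymphoid cells in the members' levels was not tested. The 5 erythroid markers found, led by Slc4a1 and Alas2, summed to 67.0 to 71.1 without tamoxifen and to 222, 348 and 56.8 in tamoxifen_1, tamoxifen_2 and tamoxifen_3. Their sum was thus highest in the libraries in which Twist1, Prrx1 and Pdgfra were high. Of the 5, only 2 could be tested, and Hba-a1 and Hba-a2 were at 0 in all 6 libraries. The 12 heat shock and immediate early genes, led by Hspa1b and Hspa1a, summed to 50980 to 62270 without tamoxifen and to 204753, 158562 and 149534 with it, and tamoxifen_3 was thus high in these genes while its Twist1, Prrx1 and Pdgfra lay near the level without tamoxifen. Their sum was 54197 in column 6 and 170065 in column 10. Hspa1b was at 1091 to 1618 normalised reads without tamoxifen and at 44218 to 78418 with it, at 924 in column 6 and at 56354 in column 10. These values lie in the range of, or nearest to, the group that each column has when the names cover the last 8 columns, the placement in which Twist1 was at 0.035. The members went the other way in column 6. Twist1, Prrx1 and Pdgfra, at 677, 1572 and 4101 there, lay nearest to the tamoxifen group, its group when the names cover the first 8. Macrophage markers summed to 557 in column 6, against 30636 to 48756 in the 6 compared libraries. The part of cell makeup in these values was not tested. No library was assigned to a group from its values.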
